A study of Mus musculus with 4 samples.

Results

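The heat shock protein genes studied here were 10 chaperone genes of the mouse, Hspa1a, Hspa1b, Hspa8, Hsph1, Hsp90aa1, Hsp90ab1, Hspb1, Dnajb1, Hspe1 and Hspd1. They were taken by gene symbol from a count table of 55487 genes, whatever their values, and each symbol matched 1 gene. All 10 had enough reads to be tested, among 19384 tested genes.

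RNA was sequenced from mouse embryonic fibroblasts (MEFs), primary cells grown from wild-type C57BL/6J embryos. The cells were left untreated (control) or given recombinant pigment epithelium-derived factor (PEDF) at 100 ng/mL for 24 hours. PEDF is a secreted protein of the serpin family, and the recombinant protein was purified from mammalian cells. The MEFs are labelled as passage 2. A later passage is named in the publication. Experiments 1 and 2 each gave 1 control and 1 PEDF library, so there were 2 control and 2 PEDF libraries, and each experiment used MEFs from different embryos. The fibroblasts were cultured in serum and were a bulk population, in which fewer cells of a kind and less RNA per cell cannot be told apart. The number of embryos pooled in an experiment was not given in the sources used here.

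Heat shock proteins are molecular chaperones that hold, fold or release other proteins. HSP70 proteins bind unfolded stretches with the help of J-domain proteins, HSP90 proteins act on partly folded clients such as kinases and receptors, small heat shock proteins keep unfolding proteins from clumping, and the HSP60 and HSP10 pair folds proteins inside mitochondria. Some of these genes are constitutive, while others are strongly induced by heat shock factor 1 when cells are heated or otherwise stressed, which is why their transcripts are often read as a sign of stress during the handling of cells.

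The libraries held between 14722848 and 18144640 counts on genes. All 10 fibroblast markers were counted in every library, at a summed level of 42367 to 54561 CPM (counts scaled to TMM-adjusted library totals). Of markers of other cells, the 8 macrophage genes summed to 112 to 178 CPM, the 5 endothelial genes to 14.3 to 14.8 CPM with Tie1 at 0, the 6 epithelial genes to 42.6 to 56.7 CPM and the 7 skeletal muscle genes to 371 to 474 CPM. The macrophage sum was 175 and 178 CPM in experiment 1 against 112 and 144 CPM in experiment 2.

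The promoters of these genes are shown first because heat shock factor 1 acts through repeats of the bases GAA in alternating direction. The windows are those of RefSeq on GRCm38.p6, from 250 bases before to 50 bases after an annotated start, and 10 windows were found for 7 of the 10 genes. The motif of 3 units, GAANNTTCNNGAA or its other strand TTCNNGAANNTTC, was in 198 of 32851 mouse promoters (0.603%) and in 4 of the 10 windows, which belong to Hspd1, Hspe1 and Hsph1. These 4 windows hold 2 separate stretches, since Hspd1 and Hspe1 read the same bases on opposite strands and Hsph1 has 2 overlapping windows. The motif of 2 units, GAANNTTC or TTCNNGAA, was in 15.1% of all promoters and in 7 of the 10 windows, from 6 of the 7 genes, and every match of the longer motif holds matches of the shorter one. A match describes the letters alone and was not measured as a bound site.

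Hspe1 and Hspd1 lie head to head, and the window of Hspe1 overlaps most of 1 of the 2 windows of Hspd1 (chr1:55087883-55088182, − strand). The window of Hspe1 is printed here (chr1:55087898-55088197, + strand). Capitals mark overlapping matches of the 3-unit motif, an 18-base run that begins 89 bases before the annotated start of Hspe1. The other Hspd1 window (chr1:55088194-55088493, − strand), at the start of the gene as counted, holds no match of either motif. In Hsph1 (chr5:149636287-149636586, − strand) the capitals mark a match of 13 bases that begins 37 bases after the start.
Hspe1 promoter: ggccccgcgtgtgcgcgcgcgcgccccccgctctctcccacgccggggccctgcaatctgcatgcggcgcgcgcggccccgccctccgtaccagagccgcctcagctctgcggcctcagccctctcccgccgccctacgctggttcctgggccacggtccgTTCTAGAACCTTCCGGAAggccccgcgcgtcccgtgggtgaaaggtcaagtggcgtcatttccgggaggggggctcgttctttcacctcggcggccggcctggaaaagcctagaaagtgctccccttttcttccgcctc
Hsph1 promoter: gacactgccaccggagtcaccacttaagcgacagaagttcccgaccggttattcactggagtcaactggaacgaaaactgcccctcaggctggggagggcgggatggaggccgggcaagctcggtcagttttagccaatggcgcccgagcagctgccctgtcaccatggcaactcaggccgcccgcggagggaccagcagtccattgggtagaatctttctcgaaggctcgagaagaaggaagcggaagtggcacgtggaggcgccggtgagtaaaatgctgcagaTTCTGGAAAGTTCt

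Hspa1a (chr17:34972107-34972406, − strand) and Hspa1b (chr17:34959189-34959488, − strand) are shown as a pair because they are neighbouring copies. Their windows differed at 4 of 300 bases, and both hold 1 match of the 2-unit motif, in capitals, beginning 104 bases before the start.
Hspa1a promoter: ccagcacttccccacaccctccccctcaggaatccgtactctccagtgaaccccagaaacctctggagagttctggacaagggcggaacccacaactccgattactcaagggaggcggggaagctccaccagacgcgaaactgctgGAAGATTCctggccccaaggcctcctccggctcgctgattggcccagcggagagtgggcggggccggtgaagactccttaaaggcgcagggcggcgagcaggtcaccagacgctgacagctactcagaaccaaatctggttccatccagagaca
Hspa1b promoter: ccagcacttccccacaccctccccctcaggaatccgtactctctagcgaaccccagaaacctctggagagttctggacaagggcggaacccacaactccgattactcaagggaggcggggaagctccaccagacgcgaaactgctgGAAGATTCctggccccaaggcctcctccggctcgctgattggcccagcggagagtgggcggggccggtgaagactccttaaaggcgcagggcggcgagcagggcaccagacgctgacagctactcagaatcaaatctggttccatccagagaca

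The levels of the 10 genes spanned a wide range, from the HSP90 gene Hsp90ab1 to the inducible HSP70 gene Hspa1a. On the TPM scale, which divides counts by gene length before scaling and so allows genes to be compared, Hsp90ab1 was at 2532 ± 105 TPM (SD, n = 4 libraries), Hspa8 at 1197 ± 39.3 TPM, Hsp90aa1 at 493 ± 17.8 TPM and Hspd1 at 444 ± 23.9 TPM. Next came Hspe1 at 262 ± 10.1 TPM, Hspb1 at 207 ± 2.66 TPM, Hsph1 at 49.4 ± 2.87 TPM and Dnajb1 at 47.6 ± 2.19 TPM. The stress-inducible HSP70 pair was lowest, with Hspa1b at 14.7 ± 1.56 TPM and Hspa1a at 4.06 ± 1.15 TPM. Of the 9 pairs of neighbours in this order, Hsph1 and Dnajb1 alone had ranges that overlapped over the 4 libraries. CPM per kilobase uses the same gene lengths, so its order is no separate check.

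**Figure D1:**
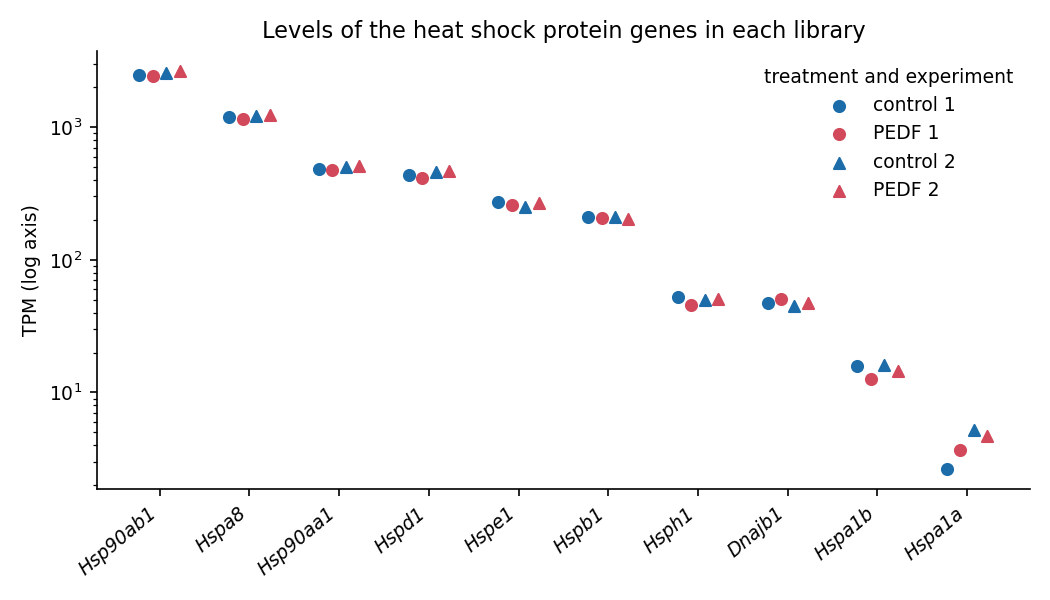
TPM of each heat shock protein gene (log axis) in the 4 libraries, with blue for control, red for PEDF, circles for experiment 1 and triangles for experiment 2. The constitutive genes Hsp90ab1 (2532 TPM) and Hspa8 (1197 TPM) are highest, the inducible Hspa1a is lowest (4.06 TPM) and its points are the most spread.

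In the HSP90 and HSP70 families the constitutive member was the more abundant one. Hsp90ab1, the constitutive cytosolic HSP90, had 5.14 times the mean TPM of Hsp90aa1, the inducible form. Hspa8, the constitutive HSC70, had 63.7 times the mean TPM of Hspa1a and Hspa1b together, and 25.2 and 24.2 times those of its partners Dnajb1 and Hsph1. The chaperonin Hspd1 was at 1.69 times the mean TPM of its cofactor Hspe1. TPM divides by the bases of all exons of a gene, 2642 for Hspd1 and 1474 for Hspe1. Their longest coding transcripts have 2423 and 774 bases. The 2 lengths were 4301 and 2394 for Hspa8, 7266 and 3802 for Hsph1, and both 2967 for Hspa1a. How far the ratios and the order depend on the choice of length was not tested. Together the 10 genes took 5944 CPM in control 1, 5964 CPM in PEDF 1, 5958 CPM in control 2 and 6170 CPM in PEDF 2. As a share of the TMM-scaled totals this is 0.594% to 0.617%.

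The comparison of PEDF with control asked whether the treatment changed the expression of these chaperones. None of the 10 genes passed the test. In the quasi-likelihood test of edgeR on counts, 0 of the 10 had an adjusted p under 0.05 and 0 of 10 an unadjusted p under 0.05, where 0.00516% and 6.88% of all tested genes did. DESeq2 called 0 of the 8 to which it gave an adjusted p (0.0191% of all genes), with none given for Hspa1a and Hspa1b, and limma on log2 TPM called 0.0% of all genes. The fitted median log2 fold change of the 10 was 0.02, beside 0.00 for all genes tested. For the 8 genes other than Hspa1a and Hspa1b, the 95% intervals of the fold change lay between 0.857 and 1.22 times.

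The numbers 1 and 2 pair the libraries by culture, and with the experiment as a block edgeR called 726 of the 19384 genes (3.75%) and again 0 of the 10. The lowest adjusted p among them was then 0.504, for Hspa1b. The intervals of the same 8 genes were then between 0.891 and 1.18 times. This fit pooled the variance over all genes, with 19384 degrees of freedom, against 15.8 for these 8 genes without the block. The narrower intervals therefore do not rest on the spread of each gene. With the length correction in that fit 2.22% of all genes were called, with 0 of the 10, and 1 of the 10, Hspa1b, had an unadjusted p under 0.05, at a log2 value of -0.25 (interval -0.51 to -0.00, adjusted p = 0.416), where 11.7% of all genes had one. DESeq2 with the block called 0.451% of all genes and 0 of the 4 of these genes that it gave an adjusted p. The summed fibroblast markers were lower in the PEDF library of each experiment, at 46804 and 42367 CPM in control 1 and PEDF 1 and 54561 and 45687 CPM in control 2 and PEDF 2. Single markers went both ways, with fitted log2 values from -0.37 to 0.34, 4 of 10 above 0, and with the block 2 called higher and 4 lower. The skeletal muscle sum was higher with PEDF in each experiment, at 371 and 411 CPM and at 442 and 474 CPM, and with the block 2 muscle markers and 1 macrophage marker were called higher, and with the length correction as well 0 muscle markers and 1 macrophage marker. The part of these markers in the values of the heat shock genes was not tested. The CPM of control and PEDF libraries did not overlap for 2 of the 10 genes, Hspa1b and Hsp90ab1, while they did not overlap for 37.3% of all tested genes.

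**Figure D2:**
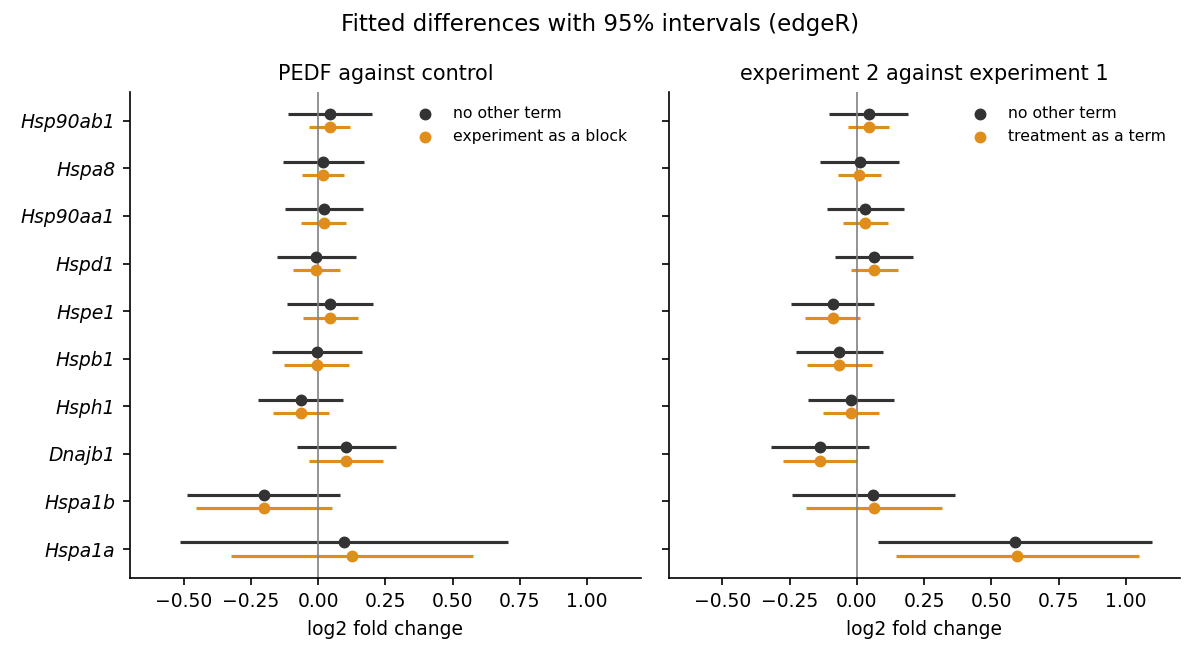
Fitted log2 fold changes (points) with 95% intervals (bars) from edgeR for PEDF against control (left) and experiment 2 against experiment 1 (right), without another term (black) and with the other factor in the fit (orange). All bars for PEDF include 0, and Hspa1a has the widest bars, from -0.51 to 0.70 for PEDF and from 0.08 to 1.10 for experiment.

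Among the HSP70 genes, Hspa8 (chr9:40800984-40810087, + strand), which serves everyday folding and clathrin uncoating, was at 1822 CPM in control 1, 1802 CPM in PEDF 1, 1789 CPM in control 2 and 1859 CPM in PEDF 2. The PEDF libraries held both the second lowest and the highest value, so the groups overlapped. Its log2 fold change with PEDF was 0.02 ± 0.07 (SE), with a 95% interval from -0.13 to 0.17 (edgeR adjusted p = 0.968). Within the experiments the log2 ratio of PEDF to control was -0.02 (counting interval -0.04 to 0.01) in experiment 1 and 0.06 (0.03 to 0.08) in experiment 2.

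Hspa1b (chr17:34956436-34959238, − strand), a stress-inducible HSP70, was at 15.7 CPM in control 1, 12.9 CPM in PEDF 1, 15.5 CPM in control 2 and 14.2 CPM in PEDF 2. Both PEDF libraries were below both controls. The mean was 15.6 ± 0.0876 CPM in control and 13.5 ± 0.942 CPM in PEDF (SD, n = 2 each), and the log2 fold change was -0.20 ± 0.13 (SE), with an interval from -0.49 to 0.08 (edgeR adjusted p = 0.782). In log2 ratios, PEDF was lower by -0.28 (counting interval -0.56 to -0.00) in experiment 1 and by -0.13 (-0.38 to 0.12) in experiment 2.

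Hspa1a (chr17:34969190-34972156, − strand), the other inducible HSP70, had the fewest reads, 41 in control 1, 62 in PEDF 1, 96 in control 2 and 86 in PEDF 2. These were 2.78, 3.99, 5.38 and 4.83 CPM in that order, and control 1 was the lowest and control 2 the highest of the 4. PEDF was higher than control in experiment 1, by 0.52 in log2 ratio (counting interval -0.07 to 1.13), and was not in experiment 2, at -0.16 (-0.59 to 0.28). The fitted log2 fold change was 0.10 ± 0.29 (SE), with an interval from -0.51 to 0.70 (edgeR adjusted p = 0.958). It was -0.28 without control 1 and 0.67 without control 2, each with 1 control library left.

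Neither HSP70 partner passed the test. Hsph1 (chr5:149614287-149636376, − strand), an HSP110 that exchanges the nucleotide of HSP70, was at 135 CPM in control 1, 121 CPM in PEDF 1, 124 CPM in control 2 and 127 CPM in PEDF 2. Its highest and lowest values were both in experiment 1, where the log2 ratio of PEDF to control was -0.16 (counting interval -0.25 to -0.07), against 0.03 (-0.05 to 0.12) in experiment 2. The fitted log2 fold change was -0.06 ± 0.07 (SE), with an interval from -0.22 to 0.09 (edgeR adjusted p = 0.889). With a library left out it ran from -0.124 to -0.0058.

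Dnajb1 (chr8:83608193-83612653, + strand), the J-domain protein HSP40 that hands clients to HSP70, was at 53.9 CPM in control 1, 58.9 CPM in PEDF 1, 49.9 CPM in control 2 and 52.8 CPM in PEDF 2. It was higher with PEDF in both experiments, by log2 ratios of 0.13 and 0.08, with counting intervals that included 0 (-0.01 to 0.27 and -0.05 to 0.21). Control 1 was above PEDF 2, so the groups overlapped. The log2 fold change was 0.11 ± 0.09 (SE), with an interval from -0.08 to 0.29 (edgeR adjusted p = 0.822). Leaving out each library in turn gave 0.02 (without PEDF 1) to 0.18 (without PEDF 2).

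Hsp90ab1 had the most reads of the 10 genes and so the narrowest counting intervals. This constitutive HSP90 gene (chr17:45567775-45573271, − strand) was at 2609 CPM in control 1, 2672 CPM in PEDF 1, 2671 CPM in control 2 and 2773 CPM in PEDF 2. In CPM the PEDF libraries were above the controls by a narrow margin, since PEDF 1 and control 2 were nearly equal. In TPM the groups overlapped, with the controls at 2450 and 2577 and the PEDF libraries at 2442 and 2660. The log2 ratios were 0.03 (counting interval 0.01 to 0.05) and 0.05 (0.04 to 0.07), and the fit gave 0.04 ± 0.07 (SE), with an interval from -0.11 to 0.20 (edgeR adjusted p = 0.924).

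The inducible HSP90 gene Hsp90aa1 (chr12:110690605-110702728, − strand) was at 675 CPM in control 1, 679 CPM in PEDF 1, 684 CPM in control 2 and 700 CPM in PEDF 2. Each PEDF library lay just above the control of its own experiment, while control 2 was above PEDF 1. Its log2 fold change was 0.02 ± 0.07 (SE), with an interval from -0.12 to 0.17 (edgeR adjusted p = 0.964).

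The small heat shock protein gene Hspb1 (chr5:135887919-135889563, + strand), whose product HSP27 also binds actin, was at 76.6 CPM in control 1, 77.8 CPM in PEDF 1, 74.6 CPM in control 2 and 73.0 CPM in PEDF 2. PEDF 1 was the highest and PEDF 2 the lowest library. The log2 fold change was -0.00 ± 0.08 (SE), with an interval from -0.17 to 0.16 (edgeR adjusted p = 0.996).

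Of the mitochondrial pair, Hspd1 (chr1:55077835-55088243, − strand), the HSP60 chaperonin, was at 412 CPM in control 1, 398 CPM in PEDF 1, 418 CPM in control 2 and 428 CPM in PEDF 2. Hspe1 (chr1:55088132-55091307, + strand), its HSP10 lid, was at 142, 139, 127 and 138 CPM in the same order. For both genes the PEDF library was below the control in experiment 1 and above it in experiment 2. The log2 ratios were -0.05 and 0.04 for Hspd1 and -0.03 and 0.12 for Hspe1, and the fitted values were -0.01 ± 0.07 and 0.04 ± 0.08 (SE), with edgeR adjusted p of 0.992 and 0.929.

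In the 2 experiments taken one by one, the log2 ratios of PEDF to control had a median of -0.00 over the 10 genes in experiment 1 and 0.03 in experiment 2. The ratio had the same sign in both experiments for 4 of the 10 genes, Hspa1b, Hsp90aa1, Hsp90ab1 and Dnajb1, and opposite signs for the other 6. These signs are of CPM and depend on the scale. In TPM, PEDF 1 was below control 1 for Hsp90aa1 (473 and 484 TPM) and Hsp90ab1 (2442 and 2450 TPM). Hspb1 was lower with PEDF in both experiments in TPM, at 207 against 209 and at 204 against 209. With 1 library of each kind in an experiment these ratios have no test, and their intervals cover counting error only.

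**Figure D3:**
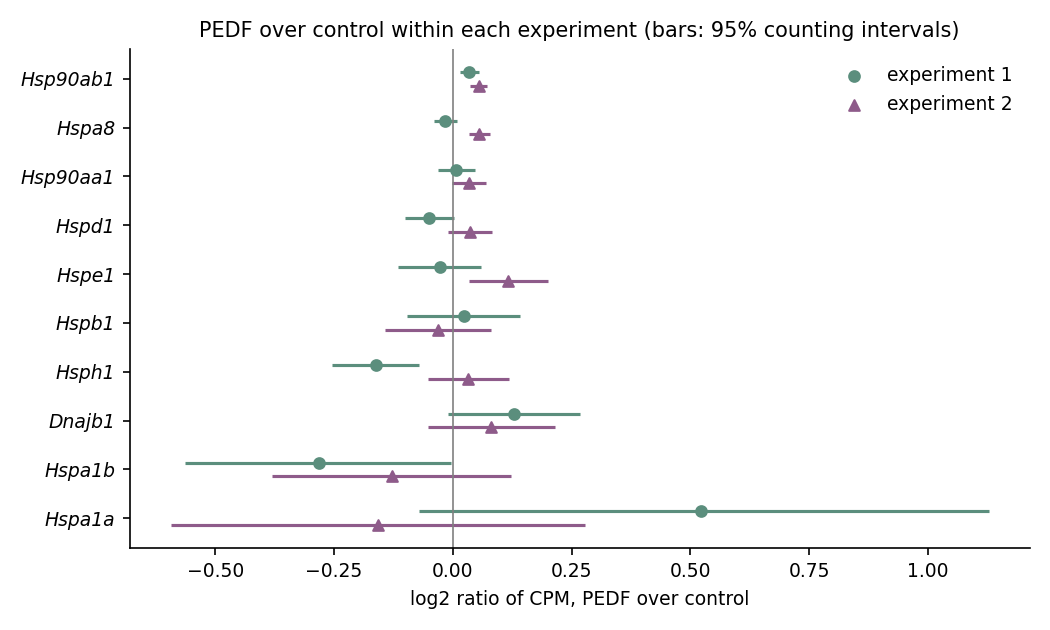
Log2 ratio of CPM, PEDF over control, in experiment 1 (circles) and experiment 2 (triangles), with 95% counting intervals as bars. The points of the 2 experiments lie on opposite sides of 0 for 6 of the 10 genes, furthest apart for Hspa1a (0.52 and -0.16).

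The second comparison asked how far these genes differ between cultures made from different embryos, as a check on stress in handling. None of the 10 passed the test, and 1 of the 10, Hspa1a, had an unadjusted p under 0.05, where 7.67% of all tested genes did. In edgeR 0.0567% of all genes were called, and with treatment as a term in the fit 4.49%, again with 0 of the 10. DESeq2 called 0.0344% of all genes and edgeR with the term and a length correction 3.18%, each with 0 of the 10. In that last fit 3 of the 10 had an unadjusted p under 0.05, Hspa1a at 0.63, Hspd1 at 0.11 and Hsp90ab1 at 0.08 in log2, where 12.9% of all genes had one. DESeq2 with the treatment term called 0.39% of all genes and 0 of the 4 of these genes that it gave an adjusted p. The median log2 fold change of experiment 2 against experiment 1 was 0.02 over the 10 genes, beside -0.00 over all genes tested. The CPM of the experiments did not overlap for 6 of the 10 genes, beside 37.5% of all tested genes. Of these, Hspa1a, Hsp90aa1 and Hspd1 were higher in experiment 2, and Hspb1, Dnajb1 and Hspe1 were lower.

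Hspa1a was 0.59 ± 0.24 (SE) higher in log2 in experiment 2, with a 95% interval from 0.08 to 1.10 (edgeR adjusted p = 0.600), and 0.60 ± 0.23 (SE) with treatment in the fit (adjusted p = 0.133). The ratio was 0.95 (counting interval 0.41 to 1.52) between the controls and 0.28 (-0.21 to 0.77) between the PEDF libraries. Leaving out each library in turn gave 0.36 to 0.88. Its neighbouring copy Hspa1b differed by 0.06 ± 0.14 (SE) (edgeR adjusted p = 0.949), so the inducible pair was at a summed 18.4 CPM in control 1, 16.9 CPM in PEDF 1, 20.9 CPM in control 2 and 19.0 CPM in PEDF 2. The sum was lower in PEDF than in control within each experiment.

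For the HSP70 partner Dnajb1, the fitted difference was -0.14 ± 0.09 (SE), with an interval from -0.32 to 0.05 (edgeR adjusted p = 0.751). With a library left out it ran from -0.199 to -0.0719. The other 7 genes besides Hspa1a, Hspa1b and Dnajb1 had fitted differences between -0.09 and 0.06. For the 8 genes other than Hspa1a and Hspa1b, the intervals of the fold change between experiments lay between 0.801 and 1.16 times. Several marker sums moved with this comparison. Beside the lower macrophage sum of experiment 2, given above, the epithelial sum was 56.7 and 55.5 CPM in control 1 and PEDF 1 and 42.6 and 43.5 CPM in control 2 and PEDF 2. The skeletal muscle sum was 371 and 411 CPM in experiment 1 and 442 and 474 CPM in experiment 2, with 1 muscle gene, Myh3 (named after its values were seen), called higher by edgeR. With treatment in the fit, 3 macrophage markers and 1 epithelial marker were called lower, 2 muscle markers higher, and of the fibroblast markers 3 higher and 2 lower. Their part in these values was not tested.

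Hspa1a stands in a stretch of chromosome 17 with several overlapping or similar genes. Gm20481 (chr17:34969912-34972136, + strand), named after its values were seen, has all of its 564 exon bases inside the exons of Hspa1a, on the opposite strand. It had 19, 20, 38 and 35 counts in control 1, PEDF 1, control 2 and PEDF 2, or 1.29, 1.29, 2.13 and 1.96 CPM. Both libraries of experiment 1 were below both of experiment 2, with a log2 difference of 0.67 ± 0.36 (SE) (edgeR adjusted p = 0.699). Hspa1l (chr17:34972703-34979285, + strand), a further HSP70 gene known from the testis, was at 1.83, 2.32, 3.31 and 2.97 CPM in that order and 0.60 ± 0.29 (SE) higher in experiment 2 (edgeR adjusted p = 0.661). The strand setting of the counting was not given in the sources used here, so reads of Hspa1a and Gm20481 may not be fully separated.

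**Figure D4:**
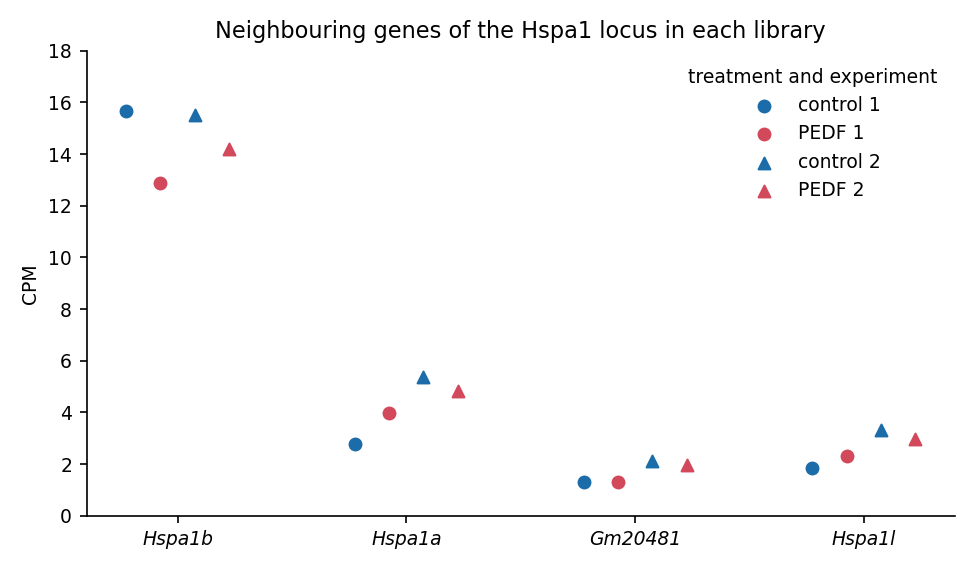
CPM of Hspa1b, Hspa1a, Gm20481 and Hspa1l in the 4 libraries, with blue for control, red for PEDF, circles for experiment 1 and triangles for experiment 2. The triangles lie above the circles for Hspa1a, Gm20481 and Hspa1l, while Hspa1b has its PEDF points (12.9 and 14.2 CPM) below its control points (15.5 and 15.7 CPM).

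Near-identical copies limit how exactly some of these genes were counted, since only uniquely mapped reads were used. In the transcripts of GENCODE M21, 66.3% of the 50-base windows of Hspa1a and 62.3% of those of Hspa1b occur in transcripts of other genes, and the pair shares an identical stretch of 638 bases. The share was 74.8% for Hspa8, 58.5% for Hsp90aa1, 51.6% for Hspb1 and 44.8% for both Hspd1 and Hspe1, and it was 4.49% for Hsp90ab1, 0.441% for Dnajb1 and 0 for Hsph1. Of windows of 150 bases, 56.0% were shared for Hspa8, 46.0% for Hspa1a, 40.5% for Hspa1b, 36.6% for Hspb1, 36.2% for Hsp90aa1, 18.6% for Hspd1 and 14.1% for Hspe1, and 0 for the other 3 genes. How much this changed the counts was not tested. The exons of Hspd1 and Hspe1 overlap by 112 bases at their starts.

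The processed pseudogene Hspd1-ps3 (chr11:41498737-41500458, + strand), a copy of Hspd1, was at 14.4 CPM in control 1, 13.9 CPM in PEDF 1, 15.1 CPM in control 2 and 9.71 CPM in PEDF 2. PEDF 2 stood below the other 3 libraries. The log2 fold change with PEDF was -0.33 ± 0.17 (SE) (edgeR adjusted p = 0.736, and 0.143 with the experiment as a block).

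The spread over the 4 libraries, treatments and experiments together, was small for the abundant genes. The coefficient of variation of CPM was 1.58% for Hsp90aa1, 1.68% for Hspa8, 2.53% for Hsp90ab1, 2.83% for Hspb1 and 3.10% for Hspd1. It was 4.79% for Hsph1, 4.89% for Hspe1, 7.0% for Dnajb1, 8.98% for Hspa1b and 26.7% for Hspa1a. Counting alone gives 12.5% for Hspa1a, 6.5% for Hspa1b and 2.84% for Hspb1, which was the one gene of the 10 whose spread was no larger than its counting error. The median over the 10 genes was 3.95%, beside 6.67% over the 10722 genes with a mean log2 CPM above 3 and 5.37% over the 242 genes with one above 9.

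The mean centred log2 profile of the 10 genes ranged over 0.06 between control 1, the lowest, and PEDF 2, the highest. This order rested on Hspa1a, and without it the mean profile of the other 9 genes was highest in control 1, at 0.02, and lowest in control 2, at -0.02, an alternative added after the data were seen. The 5 genes with the most similar profile among 10290 were Nlk (r = 1.000), a kinase, Acta2 (r = 1.000), the smooth muscle actin, Pcsk6 (r = 0.999), a proprotein convertase, Prps2 (r = 0.999), an enzyme of nucleotide synthesis, and Mapre3 (r = 0.999), a microtubule end-binding protein. Nlk was at 15.2, 16.4, 19.4 and 20.4 CPM and Acta2 at 2255, 2288, 2381 and 2403 CPM in control 1, PEDF 1, control 2 and PEDF 2. With the profile of the 9 genes without Hspa1a, all 5 had r between -0.44 and -0.38, so their likeness rested on Hspa1a. With 4 libraries such a correlation describes an order of values, and 445 of the 10290 genes had r above 0.9.

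The rest of the chaperone network was read from 7 other lists of 115 genes, of which 113 were tested. In the edgeR fit 0 of the 113 were called in either comparison, where 0.00516% and 0.0567% of all genes were. An unadjusted p under 0.05 was found for 8 of the 113 for PEDF and 11 for experiment, beside 6.88% and 7.67% of all genes. DESeq2, which gave some of them no adjusted p for PEDF, and limma on log2 TPM also called 0 of them. With the experiment as a block, 3 genes passed for PEDF, and with treatment as a term 8 passed for experiment, where 3.75% and 4.49% of all genes did. The medians of the 7 lists for PEDF lay between -0.09, for the 5 tested heat shock factors and their regulators, and 0.07, for the 12 mitochondrial chaperones and proteases.

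**Figure D5:**
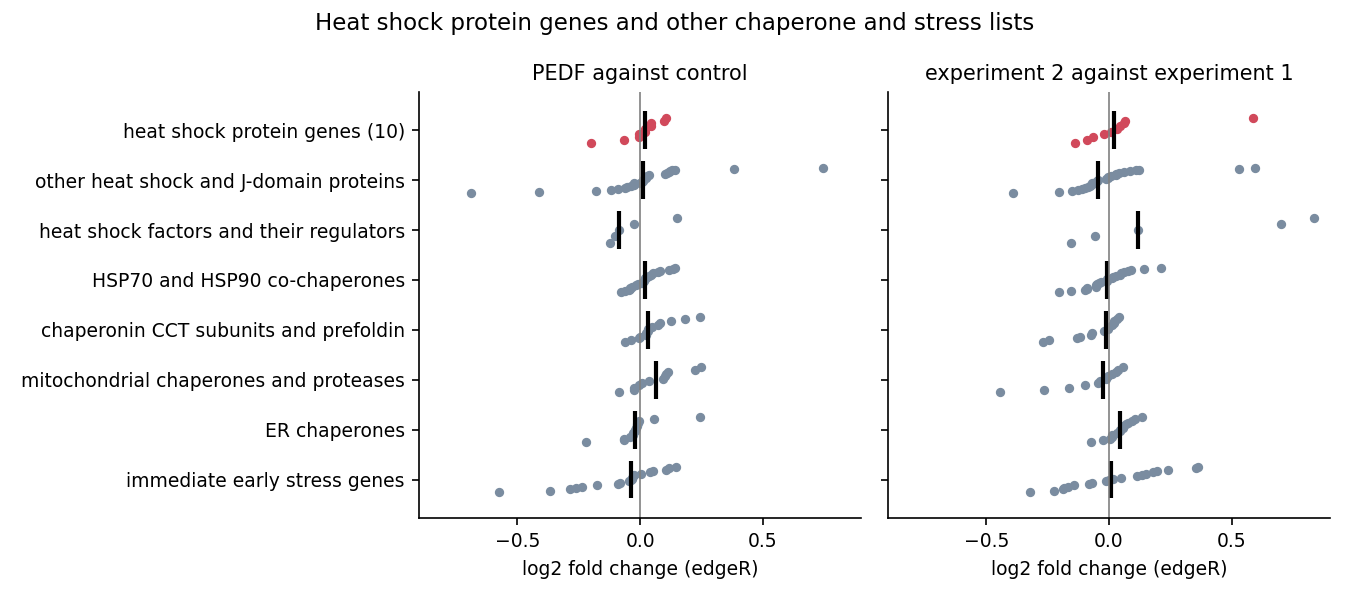
Log2 fold changes (edgeR) of every tested gene of the heat shock protein list (red) and of the 7 other chaperone and stress lists (grey), with the median of each list as a black bar, for PEDF against control (left) and experiment 2 against experiment 1 (right). The medians stay within 0.12 of 0 in both comparisons, and single points beyond 0.5 on either side belong to the other lists, apart from Hspa1a (0.59) between the experiments.

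Of the 28 other heat shock and J-domain proteins, 0 were called in either comparison, also with the other factor in the fit. With the block and the length correction 1 was called higher with PEDF, the HSP40 gene Dnaja1, named after its values were seen. Hspa2, an HSP70 gene, was at 10.4 CPM in control 1, 11.8 CPM in PEDF 1, 8.02 CPM in control 2 and 12.1 CPM in PEDF 2, with a log2 fold change for PEDF of 0.38 ± 0.17 (SE) (edgeR adjusted p = 0.707). Dnaja4, a J-domain gene, had the lowest fitted value for PEDF among the better expressed genes of the list, -0.18 ± 0.13 (adjusted p = 0.793). Between experiments, Hspa4l, an HSP110 gene, was at 0.12 ± 0.13 (adjusted p = 0.859) and Hspb11 at -0.20 ± 0.17 (adjusted p = 0.823).

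Of the 5 tested heat shock factors and regulators, 0 were called in either comparison, also with the other factor in the fit. Their median log2 fold change was -0.09 for PEDF, with 4 of 5 below 0, and 0.12 for experiment, with values from -0.16 to 0.84. Hsf1, the main heat shock factor, was at 45.9 CPM in control 1, 43.6 CPM in PEDF 1, 50.1 CPM in control 2 and 46.9 CPM in PEDF 2, and differed by 0.12 ± 0.09 (SE) in log2 between experiments (edgeR adjusted p = 0.800). Hsf2, a second factor, was at -0.10 ± 0.11 with PEDF (adjusted p = 0.874). Hsbp1, a protein that binds HSF1, was at 0.15 ± 0.09 with PEDF (adjusted p = 0.760) and at -0.16 ± 0.09 between experiments (adjusted p = 0.711).

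Among the 22 co-chaperones of HSP70 and HSP90, 0 were called for PEDF in the fit with or without the block. Bag4, an HSP70 exchange factor, was at 0.14 ± 0.12 (SE) and Ahsa2, an HSP90 activator, at -0.08 ± 0.08 (edgeR adjusted p = 0.823 and 0.872). Between experiments with treatment in the fit, the HSP90 partner p23, Ptges3, was lower in experiment 2 by a log2 value of -0.20 ± 0.05 (adjusted p = 0.00372), and was no longer called with a correction for gene length (adjusted p = 0.0807). Unc45a, a myosin chaperone, was higher by 0.21 ± 0.06 (adjusted p = 0.0171, and 0.0372 with the length correction).

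In the cytosolic chaperonin CCT and its partner prefoldin, 14 genes were tested. Pfdn1, a prefoldin subunit, was at 55.2 CPM in control 1, 62.9 CPM in PEDF 1, 48.9 CPM in control 2 and 60.1 CPM in PEDF 2. Both PEDF libraries were above the control of their experiment, by 0.24 ± 0.07 (SE) in the block fit (edgeR adjusted p = 0.0165), and the call was lost with the correction for gene length (adjusted p = 0.301). Vbp1, another subunit, was at -0.06 ± 0.09 with PEDF (adjusted p = 0.910). Between experiments Pfdn5 was lower by a log2 value of -0.25 ± 0.06 with treatment in the fit (adjusted p = 0.00408, and 0.114 with the length correction), Pfdn6 was at -0.27 ± 0.10 (adjusted p = 0.575) and Cct8 at 0.04 ± 0.07 (adjusted p = 0.921).

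Of the 12 mitochondrial chaperones and proteases, Dnajc19, of the import motor, was at 36.4 CPM in control 1, 43.8 CPM in PEDF 1, 30.8 CPM in control 2 and 36.0 CPM in PEDF 2. Its log2 fold change was 0.25 ± 0.11 (SE) with PEDF (edgeR adjusted p = 0.712) and -0.26 ± 0.08 between experiments with treatment in the fit (adjusted p = 0.0412). With the length correction that value was -0.26 too, with an adjusted p of 0.0516. The protease Lonp1 was at -0.09 ± 0.07 with PEDF (adjusted p = 0.814), and the protease Htra2 at 0.06 ± 0.07 between experiments (adjusted p = 0.897).

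Among the 15 chaperones of the endoplasmic reticulum (ER), 13 had a fitted value below 0 with PEDF and 13 above 0 in experiment 2, with medians of -0.02 and 0.04. Without PEDF 1 the count for PEDF turned to 5 below 0 and 10 above 0. Hyou1, an ER HSP110, was at 452 CPM in control 1, 395 CPM in PEDF 1, 503 CPM in control 2 and 426 CPM in PEDF 2. Each PEDF library was below both controls, and with the experiment as a block Hyou1 fell by 0.22 ± 0.04 on the log2 scale (edgeR adjusted p = 1.11e-04, and 0.00374 with the length correction), while without the block the adjusted p was 0.696. Dnajb9, an ER J-domain protein, was at 0.24 ± 0.09 with PEDF (adjusted p = 0.696). The collagen chaperone Serpinh1 was at -0.08 ± 0.07 between experiments (adjusted p = 0.841), and Hyou1 at 0.13 ± 0.09 (adjusted p = 0.759).

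The 20 immediate early stress genes, which respond within minutes to handling, included 1 call for PEDF and 4 for experiment when the other factor was in the fit, where 3.75% and 4.49% of all genes were called. Myc, a growth-promoting transcription factor, was at 53.1 CPM in control 1, 45.8 CPM in PEDF 1, 64.4 CPM in control 2 and 52.2 CPM in PEDF 2. It fell with PEDF by 0.26 ± 0.07 on the log2 scale with the block (edgeR adjusted p = 0.0107, and 8.27e-04 with the length correction), while without the block the adjusted p was 0.696. Egr2 and Ier2 were at -0.37 ± 0.17 and 0.15 ± 0.13 with PEDF (adjusted p = 0.719 and 0.841).

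Between experiments, Ier2 was at 73.2 and 79.9 CPM in control 1 and PEDF 1 and at 57.6 and 64.7 CPM in control 2 and PEDF 2. Its log2 difference was -0.32 ± 0.06 (SE) with treatment in the fit (edgeR adjusted p = 5.07e-05, and 0.00445 with the length correction). The AP-1 genes Jund and Junb were lower in experiment 2 by log2 values of -0.17 and -0.19 in the same fit (adjusted p = 0.0182 and 0.0227), and neither was called with the length correction (0.349 and 0.209). Myc was higher in experiment 2 by 0.24 ± 0.07 (adjusted p = 0.0251, and 0.00438 with the length correction), and Fosl1 was at 0.35 ± 0.15 without a treatment term (adjusted p = 0.601), at 0.36 ± 0.12 with it (adjusted p = 0.0696) and at 0.42 with the length correction as well (adjusted p = 0.0259).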

How the data were processed

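Poly(A) RNA of 4 MEF libraries (directional NEBNext kit) was sequenced in pairs. Per the submitters' processing notes, the authors used FastQC 0.11.7, Trimmomatic 0.38, HISAT2 2.1.0, SAMtools 1.9 and featureCounts 1.6.3 on mm10. The deposited values are read counts per gene, not normalized, and TPM, which the authors gave for each library. The annotation and the strand setting were not given in the sources used here. For 54784 of the 55487 genes the coordinates equalled those of GENCODE M21, and for 98.4% of 14604 genes with at least 20 counts in control 1 count over TPM followed M21 exon length within 1%.

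Groups were taken from the labels. Counts were tested with edgeR 4.0.16 (R 4.3.3; quasi-likelihood, robust, TMM) on 19384 genes with at least 10 counts in all, with Benjamini-Hochberg adjustment over all of them and a threshold of 0.05. Alternatives were DESeq2 1.42.0, limma 3.58.1 on log2(TPM + 1) and log2(TPM + 0.1), other normalization and filters, the experiment as a block, a spline correction for gene length, and each library left out. The edgeR fits with the other factor as a term, also with the length correction, pooled the variance over all genes. Their p values and intervals therefore do not rest on the spread of each gene. An exact permutation test of 2 against 2 cannot give a p below 0.333. Ratios of 2 libraries carry exact (Clopper-Pearson) 95% counting intervals, which cover counting error only. CPM is the count of a gene scaled to the TMM-adjusted total of counts on the tested genes of its library. The TMM factors ran from 0.983 in control 2 to 1.012 in PEDF 1.

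The labels tie each number to 1 experiment with its own embryos, so it pairs the libraries. The differences between experiments in control and in PEDF libraries correlated with r = 0.423 over 10722 genes. On simulated counts for PEDF against control (19027 genes, 200 changed by 4-fold) the edgeR test recovered 153 of the 200 and called 0 others, with the block it recovered 160 and called 3 others, and with the block and length correction 160 and 2.

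The genes and lists were chosen with earlier results of these data known. The text names all 10 genes, their annotated pseudogenes with counts (1 item is not reported here), the 5 genes of most similar profile, and from each list the genes called with or without the other factor in the fit and those with the largest rise and fall at a mean log2 CPM above 3.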

Additional observations from a re-analysis of the deposited data

Results flagged for a closer look

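For 6 of the 10 genes the CPM of the PEDF library was above the control in 1 experiment and below it in the other. This difference was not tested, since each experiment had 1 library of each kind. The log2 ratio of PEDF to control in experiment 2 minus that in experiment 1 was -0.6788 for Hspa1a and 0.1947 for Hsph1. It was 0.1449 for Hspe1, 0.0847 for Hspd1, 0.0712 for Hspa8 and -0.0539 for Hspb1.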

How the results depend on the processing

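The number of the 10 genes called stayed at 0 for both comparisons in every alternative run on all 4 libraries. These were other normalization, filters, DESeq2, limma, the block or treatment term and the length correction. A fit with a library left out has 1 library in 1 group. Its spread comes from the other group alone, so its calls are no separate check. DESeq2 gave no adjusted p to 2 of the 10 for PEDF, and to 6 of the 10 with the block or the treatment term, so these could not be called there. The replicate block pairs the libraries by experiment, and no gene of the 10 was called in either comparison with it. Over all genes the count of calls for PEDF moved from 1 to 726 with the block, 430 with the block and length correction, 106 without a filter, 5 in DESeq2, 118 in DESeq2 with the block, 0 in limma, and 2 to 205 with a library left out (205 without control 1). For experiment it moved from 11 to 870 with a treatment term, 616 with the term and the length correction, 139 without a filter, 102 in DESeq2 with the term, 0 in limma, and 21 to 480 with a library left out. Of the genes of the other lists, 3 were called for PEDF with the block, against 0 without it, 3 with the block and length correction (Myc, Hyou1 and Dnaja1), 1 in DESeq2 with the block (Hyou1) and 0 to 1 with a library left out (Myc, without control 1). For experiment 8 were called with the treatment term, 5 with the term and the length correction (Myc, Fosl1, Gadd45b, Unc45a and Ier2), 0 in DESeq2 with the treatment term, 1 without a filter (Ier2) and 0 to 3 with a library left out (Pfdn5, Myc and Ier2, without PEDF 2), and Dnaja1 and Gadd45b were named after their values were seen. The cause was not tested for any of these moves.

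The median log2 fold change of the 10 genes for PEDF, 0.02, was -0.0126 with the block and gene length correction and -0.0037 in the 3 limma fits, and -0.0014 to 0.0371 with a library left out. For experiment it was 0.0748 to 0.0749 in limma, where the median of all genes was 0.0378 to 0.0549, and -0.0263 to 0.0274 with a library left out. Fitted values near 0 changed sign. For PEDF, Hspa8 was at -0.0043 and Hsp90aa1 at -0.0032 in limma, where the median of all genes was -0.0204 to -0.0148, below both, and Hsp90ab1 at -0.0024 and Hspe1 at -0.0401 with the block and length correction. For experiment, Hsph1 was at 0.0336 to 0.0343 in limma, below the median of all genes there, and Hspb1 at 0.0209 with the treatment term and length correction. With a library left out, values for PEDF ran from -0.28 to 0.67 for Hspa1a, -0.0023 to 0.0415 for Hspa8, -0.0005 to 0.0419 for Hsp90aa1, -0.0509 to 0.0428 for Hspb1, -0.0387 to 0.1254 for Hspe1 and -0.0598 to 0.0458 for Hspd1. For experiment they ran from -0.0748 to 0.2085 for Hspa1b, -0.0211 to 0.0371 for Hspa8 and -0.1017 to 0.0612 for Hsph1. Depth limits Hspa1a, with 285 counts in all libraries together, and the 2 libraries of each group limit all 10 genes.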
